A study of Mus musculus with 6 samples.

Results

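The MYC, MAX and MXD network was followed through the mRNA levels of 10 of its genes: Myc, Mycn and Mycl1, their shared partner Max, the antagonists Mxd1, Mxd3, Mxd4, Mxi1 and Mnt, and Mga. These genes were taken by symbol from tables that each list 21881 genes, and all 10 are listed in both tables. Of these, 8 were tested by the authors in each comparison, while Mycn and Mycl1 were not.

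MYC proteins bind DNA only as pairs with MAX, through a helix-loop-helix and leucine zipper region, and the pairs act at E-box sequences to raise transcription of genes for growth, ribosome synthesis and metabolism. MXD proteins, MXI1 and MNT also pair with MAX, bind the same E-boxes, and lower transcription by bringing in the SIN3 and histone deacetylase corepressor. MXD levels usually rise and MYC usually falls as blood cells leave the cell cycle and differentiate, and in myeloid leukemia MYC is a well known driver of growth.

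The cells were mouse leukemia cells (strain label C57/B6X129SV) driven by AE9a, a truncated AML1-ETO fusion protein, and every group carried loxP-flanked Id1 alleles with CreER, the tamoxifen-inducible Cre recombinase. The labels give 6 RNA-seq samples: 2 treated with CBD, which the design text calls an Id1 inhibitor, at 15 µM for 16 h, 2 treated with 4-hydroxytamoxifen (4-OHT) at 0.1 µM for 48 h, and 2 controls. They name no vehicle, list no 4-OHT arm without loxP sites, and do not say whether samples of a group came from separate cultures. Values are FPKM (fragments per kilobase of transcript, scaled to the mapped total), 1 per group and table, so no SD or n can stand beside a level, and the depth is unknown.

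The comparisons were made in separate tables, each with its own control column. Of the control samples, 1 is described as the partner of CBD and 1 as the partner of 4-OHT. The labels do not say whether a control column was made from 1 library or from both. A gene is called higher or lower here where its q in the deposit is below 0.05, and log2 folds are treated over control after adding 0.1 FPKM to each. Id1 stood at 11.95 FPKM with CBD, against 34.2 in its control, and at 0.741 FPKM with 4-OHT, against 15.4 in its control. The difference with CBD did not pass (q = 0.133 in the authors' deposited table), while Id1 was called lower with 4-OHT. Of the progenitor markers, Myb was at 65.5 to 112 FPKM over the 4 columns and Gata2 at 51.3 to 113 FPKM. The pan-leukocyte gene Ptprc did not exceed 0.417 FPKM and the myeloid peroxidase gene Mpo 0.0662 FPKM in any column, so these defining markers of white and myeloid cells were nearly absent.

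Among the MYC genes, only Myc was abundant. It stood at 76.8 FPKM with CBD, against 93.5 in its control, and at 137.7 FPKM with 4-OHT, against 153.5 in its control. Myc thus lay below its own control under each treatment, and it fell by each call: the log2 fold was −0.28 with CBD (q = 0.0473 in the authors' deposited table) and −0.16 with 4-OHT (q = 4.11e-06 in the authors' deposited table). The CBD call lies close to the threshold of 0.05. Myc is on chromosome 15 from 61816896 to 61821916 in mm9, and it supplied 99.4% to 99.9% of the summed FPKM of the MYC genes over the columns.

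The control columns differ in Myc by more than either treatment does. The log2 ratio of the CBD table's control over the 4-OHT table's control is −0.71. Measured against the other table's control, CBD is still lower, with a log2 fold of −0.999, but 4-OHT is higher, with a log2 fold of 0.56. The direction for 4-OHT therefore holds only against its own control column.

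Mycn and Mycl1, the paralogs best known from neural and lung tissue, were near the bottom of the scale. Mycn was at 0.241 FPKM with CBD, against 0.0315 in its control, and is listed at 0 in both columns of the 4-OHT table. Mycl1 was at 0.256 FPKM with CBD, against 0.0382 in its control, and at 0.107 FPKM with 4-OHT, against 0.0844 in its control. For both genes the CBD column holds the highest value of the 4, and the authors marked these rows as not tested.

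The CBD column also held neural transcripts. Of 18 markers of neurons, oligodendrocytes and astrocytes, all tested with CBD, 17 rose, beside 18.4% of all tested genes. The 18 markers summed to 527 FPKM with CBD, against 116 in the control column, and their median was 13.8 FPKM, against 0.107. Of these markers only Mog was listed at 0 in the control of the CBD table. With 4-OHT 7 of the same markers were tested, 1 rose and 2 fell, beside 27.2% and 16.9% of all tested genes. All 18 summed to 73.8 FPKM with 4-OHT, against 65.1 in its control. In that table Stmn2, Nefl, Gad1, Mog and Aqp4 were at 0 in both columns, Syt1 at 0 with 4-OHT and Mag at 0 in the control. The part of these transcripts in the CBD values of network genes was not tested. In bulk RNA, more cells of a type and more RNA per cell cannot be told apart.

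**Figure D1:**
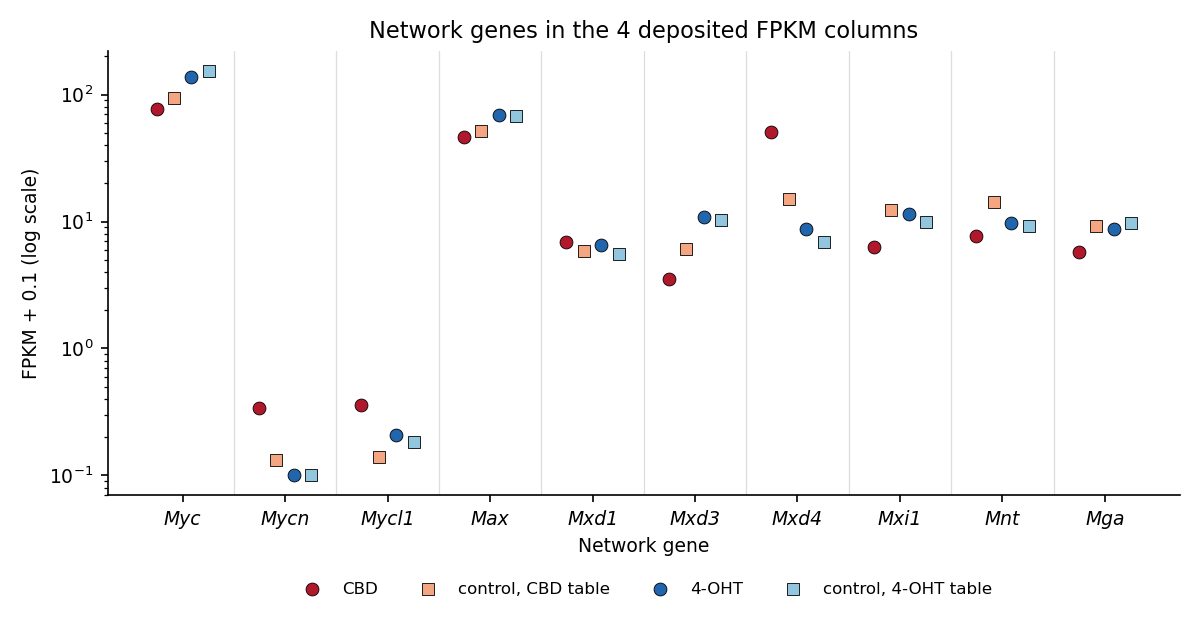
FPKM plus 0.1 on a log scale for the 10 network genes, with 1 point for each deposited column: CBD, its control, 4-OHT and its control. Myc and Max were high in all 4 columns, Mycn and Mycl1 were near the floor, and Mxd4 stood at 50.4 FPKM in the CBD column alone, against 6.83 to 14.9 in the others.

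Max, the obligate partner of both arms, moved little within either table. It was at 46.3 FPKM with CBD, against 51.5 in its control (log2 fold −0.15, q = 0.157 in the authors' deposited table). With 4-OHT it was at 69.0 FPKM, against 68.3 in its control (log2 fold 0.01, q = 0.783 in the authors' deposited table). Neither difference passed the test. In mm9 Max spans chromosome 12 from 78038256 to 78063235. Max mRNA was 0.305 times the sum of the MYC genes and the MXD and MNT antagonists with CBD and 0.351 times in its control. With 4-OHT the same ratio was 0.374, and 0.350 in its control, so Max mRNA was below the summed mRNA of its partners in all 4 columns.

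Mxd4, also called Mad4, is an MXD protein associated with differentiated cells, and it had the largest change of the tested members. It stood at 50.4 FPKM with CBD, against 14.9 in its control, a ratio of 3.38 (log2 fold 1.75, q = 9.19e-07 in the authors' deposited table). It rose, and 79.8% of the 13751 genes tested with CBD had a lower fold than Mxd4. Set against the 6.83 FPKM of the 4-OHT table's control, CBD has a larger log2 fold, at 2.86. With 4-OHT Mxd4 was at 8.55 FPKM, against 6.83 in its control, and passed the test too (log2 fold 0.32, q = 0.0382 in the authors' deposited table). That value is below the 14.9 FPKM of the other control, against which the log2 fold is −0.79. The CBD column is also the one that held the neural transcripts. The control columns themselves differ in Mxd4 by a log2 ratio of 1.11, CBD table over 4-OHT table. Mxd4 lies on chromosome 5 from 34519229 to 34530359 in mm9.

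The promoter windows of Mxd4, Max and Mnt are shown because they are the members whose windows hold the word CACGTG, the E-box that MYC and MXD pairs with MAX bind. They run from 250 bases before to 50 after the start in RefSeq, build GRCm38.p6, and capitals mark the E-box. Mxd4 is chr5:34187661-34187960 on the minus strand, Max is chr12:76962199-76962498 on the minus strand, and Mnt is chr11:74830674-74830973 on the plus strand.
Mxd4: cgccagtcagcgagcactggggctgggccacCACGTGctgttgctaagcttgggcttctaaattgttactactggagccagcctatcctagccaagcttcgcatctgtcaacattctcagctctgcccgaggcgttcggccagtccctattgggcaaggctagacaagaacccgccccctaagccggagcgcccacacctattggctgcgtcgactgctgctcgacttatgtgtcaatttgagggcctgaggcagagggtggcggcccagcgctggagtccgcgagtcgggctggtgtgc
Max: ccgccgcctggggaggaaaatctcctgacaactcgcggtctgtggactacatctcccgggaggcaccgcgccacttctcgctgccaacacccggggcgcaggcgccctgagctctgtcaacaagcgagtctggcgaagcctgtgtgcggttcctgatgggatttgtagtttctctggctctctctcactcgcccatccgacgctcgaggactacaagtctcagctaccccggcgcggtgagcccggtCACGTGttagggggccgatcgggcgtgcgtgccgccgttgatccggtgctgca
Mnt: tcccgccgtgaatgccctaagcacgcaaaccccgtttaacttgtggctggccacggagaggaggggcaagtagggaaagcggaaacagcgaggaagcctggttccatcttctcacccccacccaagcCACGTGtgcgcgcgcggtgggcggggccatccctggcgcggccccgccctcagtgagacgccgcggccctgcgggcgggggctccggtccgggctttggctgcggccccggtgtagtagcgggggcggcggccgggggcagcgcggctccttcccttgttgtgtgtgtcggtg
The first base of the word is at −219 in Mxd4, −3 in Max and −123 in Mnt, counted from the start. Over all 32851 windows of the same length, 7.15% hold CACGTG, which reads the same on both strands. Windows were given for 9 of the 10 members, 11 windows in all. None was given for Myc, so its promoter was not searched. The words CAGCTG and CAGGTG, E-boxes bound by E proteins, which ID proteins keep off DNA, were searched on both strands as well and do not overlap the first word. CAGCTG was in the window of Mga and in 16.3% of all windows, and CAGGTG was in that of Mycl1 and in 20.2% of all. These matches describe letters in a window, and Mxd4, Max and Mnt did not move alike: Mxd4 rose while Max and Mnt did not pass either test.

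Mxi1, a further MXD-type antagonist, took opposite directions under the treatments. It was at 6.24 FPKM with CBD, against 12.1 in its control, and fell (log2 fold −0.95, q = 5.47e-07 in the authors' deposited table). With 4-OHT it was at 11.4 FPKM, against 9.75 in its control, and rose (log2 fold 0.23, q = 3.23e-05 in the authors' deposited table). CBD is the lowest of the 4 columns. The 4-OHT value lies between the control columns, and its log2 fold against the other control is −0.09. The treatments differ in agent and in duration, and the difference between them was not tested. Mxi1 is on chromosome 19 from 53384996 to 53450300 in mm9.

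Mxd1, the founding MXD protein and a marker of myeloid differentiation, was low and even. It stood at 6.77 FPKM with CBD, against 5.80 in its control, which did not pass (log2 fold 0.22, q = 0.731 in the authors' deposited table). With 4-OHT it was at 6.46 FPKM, against 5.42 in its control, and rose (log2 fold 0.25, q = 0.00547 in the authors' deposited table). Each treated value is above both control columns, and Mxd1 was the only member that rose with 4-OHT for which this holds.

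Mxd3, the MXD protein that is made in proliferating rather than resting cells, was at 3.41 FPKM with CBD, against 6.002 in its control (log2 fold −0.80, q = 0.625 in the authors' deposited table). With 4-OHT it was at 10.8 FPKM, against 10.1 in its control (log2 fold 0.09, q = 0.561 in the authors' deposited table). Neither passed the test, although CBD holds the lowest of the 4 values. The deposited locus of Mxd3, chromosome 13 from 55423416 to 55431091 in mm9, is identical to that of Prelid1, which stood at 205 to 328 FPKM over the columns. Levels of Mxd3 are therefore uncertain where the counting could split reads between the overlapping genes.

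Mnt, the broadly expressed antagonist, was at 7.62 FPKM with CBD, against 14.1 in its control (log2 fold −0.88, q = 0.0643 in the authors' deposited table). With 4-OHT it was at 9.67 FPKM, against 9.19 in its control (log2 fold 0.07, q = 0.409 in the authors' deposited table). The difference with CBD is nearly as large as that of Mxi1 but did not pass. Against the other control the log2 fold of Mnt is −0.27 with CBD.

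Mga combines a T-box domain with the MAX-binding region and belongs to a Polycomb-type repressor complex. It was at 5.62 FPKM with CBD, against 9.07 in its control, and fell (log2 fold −0.68, q = 0.0192 in the authors' deposited table). With 4-OHT it was at 8.65 FPKM, against 9.60 in its control, and fell (log2 fold −0.15, q = 0.0054 in the authors' deposited table). Both treated values lie below both control columns. Mga lies on chromosome 2 from 119722964 to 119795317 in mm9, and its longest annotated transcript, at 13931 bp, is the longest of the members.

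Folds with CBD declined with transcript length across genes (Spearman rho = −0.42 over 5868 genes of at least 10 FPKM in each control column, which are not independent replicates). The trend at the length of Mga is −0.74, taken from the longest of 20 length bins, whose median of 8507 bp is shorter than Mga. With the trend removed, the log2 fold of Mga with CBD is 0.06 in place of −0.68. The other members that passed with CBD kept their direction: 2.003 for Mxd4, −0.70 for Mxi1 and −0.38 for Myc. With 4-OHT the correlation with length was −0.05 over 6000 genes, and Mga stood at −0.08 after removal.

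**Figure D2:**
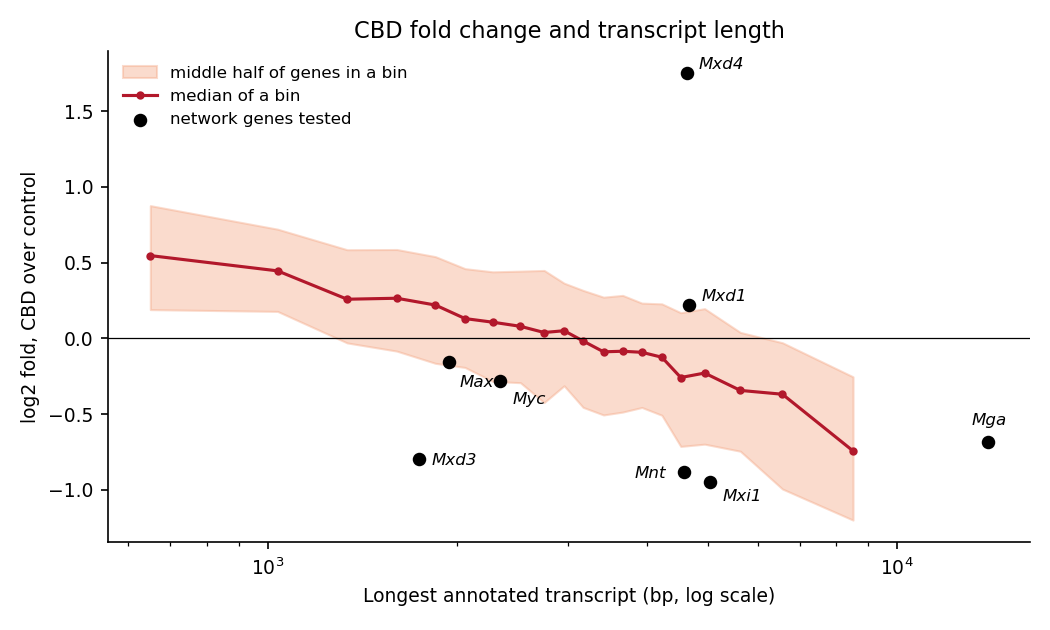
Log2 fold with CBD over control against the longest annotated transcript of a gene in bp (log scale): the line gives medians of 20 bins of genes, the band their middle quartiles and the points the 8 tested network genes. Mga, at 13931 bp and −0.68, lies near the level of the longest bin, and Mxd4, at 1.75, lies far above the genes of its length.

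In all, 4 of 8 tested members differed with CBD, 1 higher (Mxd4) and 3 lower (Myc, Mxi1 and Mga). Among all genes tested with CBD 26.2% differed, 18.4% higher and 7.74% lower. With 4-OHT 5 of 8 differed, 3 higher (Mxd1, Mxd4 and Mxi1) and 2 lower (Myc and Mga), against 44.1% of all tested genes, 27.2% higher and 16.9% lower. With 8 tested members, neither count is read as standing apart from these background shares. The median log2 fold of the tested members was −0.48 with CBD and 0.08 with 4-OHT, beside 0.29 and 0.05 for all tested genes. For tested genes at 1 FPKM or more in both columns of a table, as all 8 members are, the medians were 0.06 with CBD and 0.04 with 4-OHT.

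Requiring that the treated value also lies on the same side of the other table's control column kept all 4 calls with CBD. It likewise kept 3488 of the 3598 calls over all genes tested with CBD, or 25.4% of those tested, so keeping all 4 is not particular to the members. With 4-OHT it kept 2 of the 5 calls, Mxd1 and Mga. Over all genes tested with 4-OHT it kept 2226 of the 4951 calls, or 19.8% of those tested. Between the control columns, 4 of the 8 members differed by at least 1.5-fold (Myc, Mxd3, Mxd4 and Mnt), against 27.6% of the 9716 genes at 1 FPKM or more in both. For 6 of the 8 members the gap between the controls was larger than the fold with 4-OHT, and for 2, Myc and Max, it was larger than the fold with CBD.

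**Figure D3:**
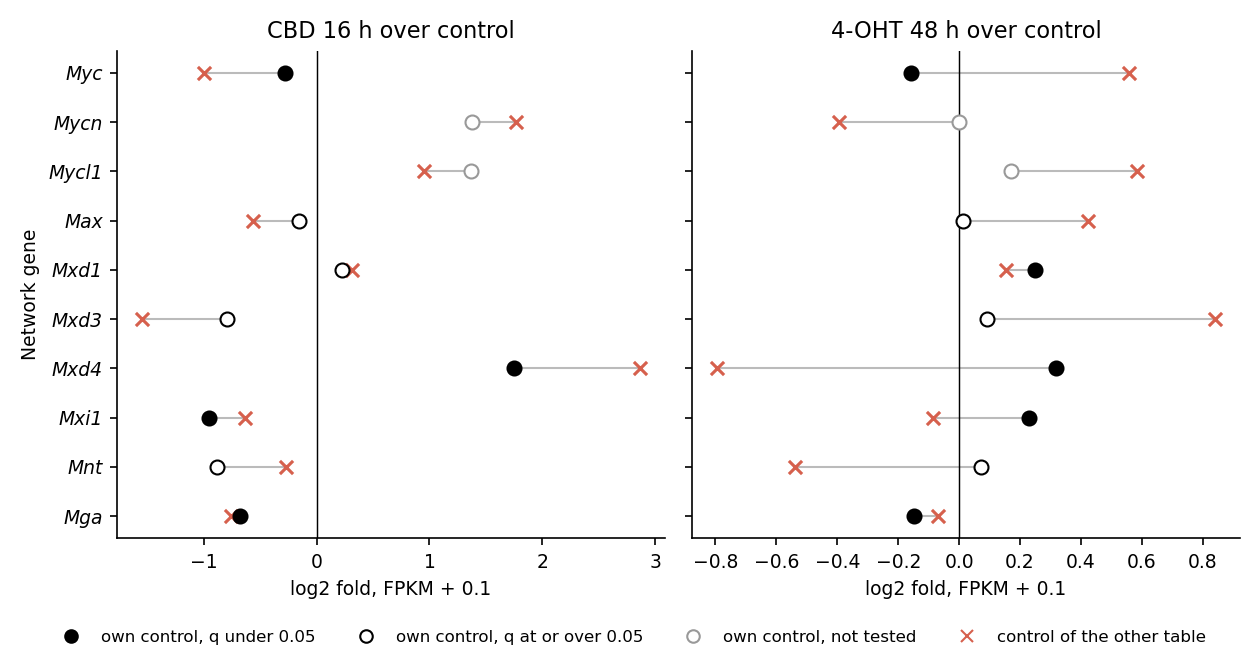
Log2 fold (FPKM plus 0.1) of the 10 network genes with CBD on the left and 4-OHT on the right, as circles against the table's own control and as crosses against the other table's control. With CBD each of the 4 called genes keeps its side, and with 4-OHT the crosses of Myc, Mxd4 and Mxi1 lie across the zero line from their circles.

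The balance of the network was described as the summed FPKM of Myc, Mycn and Mycl1 over that of Mxd1, Mxd3, Mxd4, Mxi1 and Mnt. With CBD the MYC genes summed to 77.3 FPKM and the antagonists to 74.4, a ratio of 1.04, against 93.6 and 52.9 in its control, a ratio of 1.77. With 4-OHT the sums were 137.8 and 46.9 FPKM, a ratio of 2.94, against 153.6 and 41.3 in its control, a ratio of 3.72. The log2 ratio was thus different by −0.77 with CBD and by −0.34 with 4-OHT, each minus its own control. No test was possible on 1 value per column. The log2 ratios of the controls, 0.82 in the CBD table and 1.89 in the 4-OHT table, lie further apart than treated and control in either table. The log2 ratio of 1.55 with 4-OHT lies between those controls, whereas that of 0.05 with CBD lies below both.

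The direction of the balance with CBD rested on Mxd4. It made up 67.7% of the antagonist sum with CBD, against 28.1% in its control. The other 4 antagonists together were lower, at 24.0 FPKM with CBD against 38.1 in its control. Without Mxd4, a choice made after its values were seen, the change in the log2 ratio with CBD is 0.39, the opposite sign. With 4-OHT the same omission leaves −0.31 in place of −0.34, and the other 4 antagonists summed to 38.4 FPKM against 34.5. Myc exceeded Mxd4 by 1.52 times with CBD, against 6.28 times in its control, and by 16.1 times with 4-OHT, against 22.5 times in its control.

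**Figure D4:**
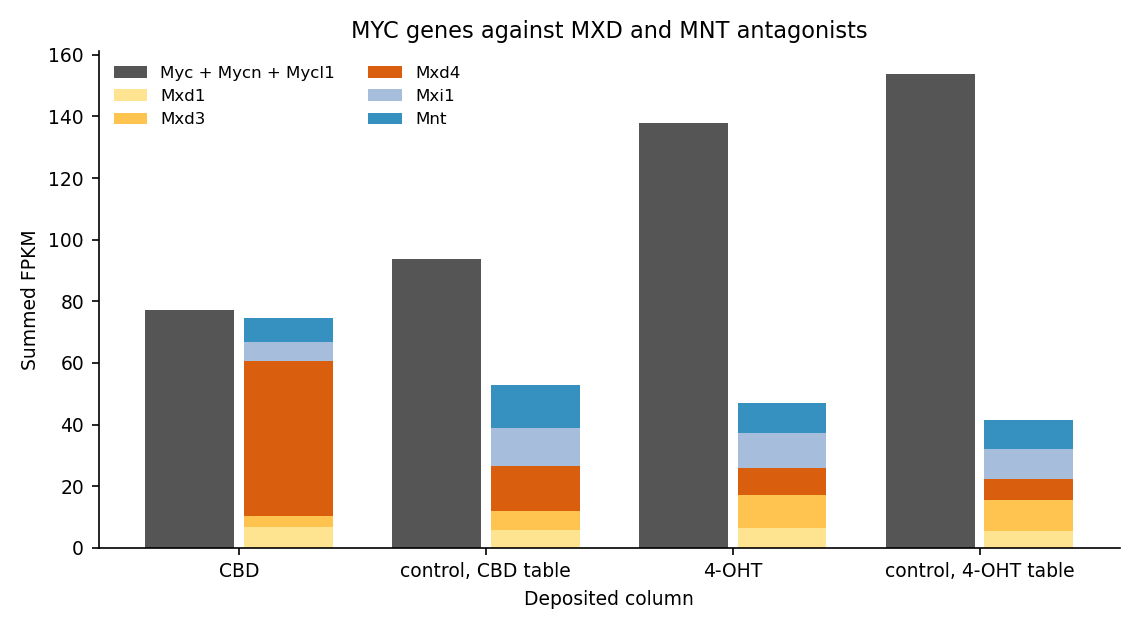
Summed FPKM of Myc, Mycn and Mycl1 (grey) beside that of the antagonists, stacked by gene, in the 4 deposited columns. The stacks reach 74.4 FPKM with CBD and 41.3 to 52.9 FPKM in the other columns, and Mxd4 fills most of the CBD stack.

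The order of levels differed between the columns in the places of Mxd4 and Mxd3 above all. With CBD Mxd4 was second, after Myc and before Max. In the control of the CBD table it came next after Max, and in the columns of the 4-OHT table it came after Mxi1, Mxd3, Mnt and Mga. Mxd3 came after Mxi1, Mnt and Mga in the CBD table and before Mnt and Mga in the 4-OHT table. Mxd1, Mxd3, Mxi1, Mnt and Mga lay between 3.41 and 14.1 FPKM throughout, and with no spread known the order of such neighbours cannot be judged.

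The genes whose levels over the 4 columns ran most like those of Myc were Ranbp1, Smn1 and Ppid, out of 5588 genes at 10 FPKM or more in every column. Ranbp1 was at 198 FPKM with CBD, against 244 in its control, and at 348 FPKM with 4-OHT, against 383 in its control. On the log2 scale, centred on each gene's mean, the largest difference from Myc in any of the 4 columns was 0.034 for Ranbp1, 0.038 for Smn1 and 0.042 for Ppid.

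Among genes that MYC is known to activate, 14 of 37 tested genes fell with CBD and the other 23 did not pass, beside 7.74% of all tested genes that fell. The median log2 fold was −0.52, beside 0.29 for all tested genes and 0.06 for those at 1 FPKM or more in both columns. The transferrin receptor gene Tfrc fell to 25.3 FPKM with CBD, against 122.7 in its control. Shmt1, an enzyme of one-carbon metabolism, fell to 14.2 FPKM, against 35.2, and nucleolin (Ncl) to 84.8 FPKM, against 191. The longest annotated Ncl transcript is of 8202 bp, and removing the length trend at that length takes its log2 fold from −1.17 to −0.48. Which Ncl transcript was expressed is not known here, and at a shorter length the trend removed would be smaller in size. In the bin with a median of 2749 bp it is 0.04, the opposite sign, so removal there would not shrink the fall. All 14 genes also lie below the other control column, Shmt2 narrowly, at 191 FPKM against 200. Over all genes tested with CBD, 3488 of the 3598 calls likewise keep their side against that column.

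With 4-OHT 24 of 39 tested MYC-activated genes fell, 1 rose and 14 did not pass, with a median log2 fold of −0.18, while 16.9% of all tested genes fell. Rrp12, a ribosome maturation factor, fell to 35.9 FPKM, against 53.0 in its control, and Ppat, an enzyme of purine synthesis, to 51.6 FPKM, against 73.0. The gene that rose was Ldha, lactate dehydrogenase A, at 2383 FPKM against 1508. Only 5 of the 24 also lie below the other control. Of the 1896 tested genes that fell, 662 met this rule, which is 5.89% of all tested genes. The list's median log2 fold against that control is 0.33.

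Among genes that MYC is known to repress, 3 of 13 tested genes rose with CBD and 10 did not pass, beside 18.4% of all tested genes that rose. Cdkn2b, the CDK4 and CDK6 inhibitor p15, rose to 34.6 FPKM with CBD, against 4.54 in its control. Ndrg2 rose to 51.0 FPKM, against 21.2, and Cdkn1a, the CDK inhibitor p21, to 83.0 FPKM, against 50.3. With 4-OHT 7 of 9 tested genes rose and 2 did not pass, beside 27.2% of all tested genes that rose. Gadd45g and Gadd45b, genes of stress and growth arrest, rose to 7.82 and 6.41 FPKM with 4-OHT, against 2.42 and 2.36 in its control, and Ndrg1 to 3.70 FPKM, against 1.65. These 3 lie below the other control column, where Ndrg1 is at 17.7 FPKM. Cdkn1c and Ndrg2, named after their values were seen, were the 2 genes of the 7 above both controls. Of the 3055 tested genes that rose, 1564 met this rule, which is 13.9% of all tested genes. Cdkn1c was at 0.459 FPKM with 4-OHT, against 0.173 in its control (q = 0.0493 in the authors' deposited table). That call is near the floor and close to the threshold of 0.05, and a mean of at least 1 FPKM leaves 6 of the 7 calls. The list's median log2 fold was 0.72 with CBD over 13 genes and 0.93 with 4-OHT over 9, beside 0.29 and 0.05 for all tested genes. Cdkn1c, Cebpa, Ccnd1, Gas1 and Pdgfrb, which count towards the median with CBD, were below 1 FPKM in both columns of that table. Of these only Cdkn1c was tested with 4-OHT, so the medians cover different genes. Against the other control the list's median with 4-OHT is −0.18.

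**Figure D5:**
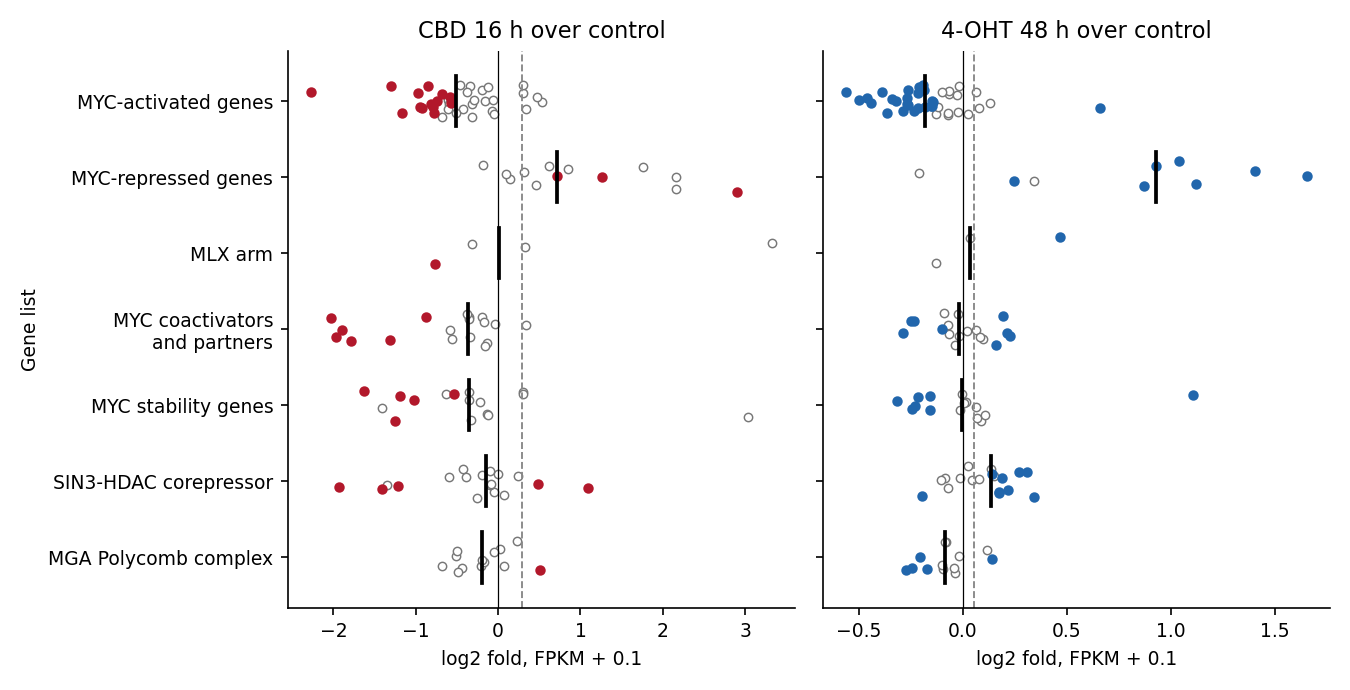
Log2 fold (FPKM plus 0.1) of tested genes in the 7 pathway lists with CBD on the left and 4-OHT on the right. Filled points are genes called at q below 0.05 by the authors' deposited table, thick bars are list medians and dashed lines the median of all tested genes (0.29 and 0.05), with MYC-activated genes at −0.52 and −0.18.

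MYC coactivators and chromatin partners fell with CBD in 6 of 18 cases and 12 did not pass, beside 7.74% of all tested genes that fell. The median log2 fold was −0.37, beside 0.06 for tested genes that reach 1 FPKM in both columns. Hcfc1, a MYC-binding host cell factor, fell to 13.6 FPKM with CBD, against 55.9 in its control, the chromatin reader gene Bptf to 2.36 FPKM, against 9.57, and Ep400, an ATPase of the TIP60 complex, to 7.18 FPKM, against 27.1. Their longest transcripts are of 8262, 12036 and 10685 bp, and with the length trend removed their log2 folds are −1.33, −1.23 and −1.16 in place of −2.03, −1.97 and −1.90. For Bptf and Ep400, as for Mga, the trend is that of the longest bin, whose median of 8507 bp is shorter than either. With 4-OHT 4 rose and 4 fell of 18, a share of 44.4%, close to the 44.1% of all tested genes that were called. Kat2a, a histone acetyltransferase gene, was at 45.96 FPKM, against 56.1 in its control, and Trrap, the scaffold that MYC binds, at 15.4 FPKM, against 18.3. Hcfc1 was at 61.5 FPKM with 4-OHT, against 72.4. These 3 called log2 folds lie between −0.29 and −0.24, and of these genes only Trrap also lies below the other control column. Of the 4 that rose, Kat5, Actl6a and Paf1, named after their values were seen, also exceed the other control. Kat5, the acetyltransferase of the TIP60 complex, was at 24.1 FPKM with 4-OHT, against 20.8 in its control.

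Genes that control MYC protein stability fell with CBD in 5 of 16 cases and 11 did not pass, beside 7.74% of all tested genes that fell and 26.2% called in either direction. The ubiquitin ligase gene Huwe1 fell to 9.41 FPKM with CBD, against 29.3 in its control, the deubiquitinase gene Usp36 to 5.93 FPKM, against 14.3, and the kinase gene Aurka to 28.3 FPKM, against 64.9. Huwe1 has a longest transcript of 14579 bp, and its log2 fold of −1.63 is −0.89 with the length trend of the longest bin removed. With 4-OHT 6 of 15 fell and 1 rose, a share of 46.7%, close to the 44.1% of all tested genes. The gene that rose was Usp28, a deubiquitinase that counters FBXW7, at 5.34 FPKM against 2.43 in its control, and it also exceeds the other control, at 4.18 FPKM. Usp36 fell to 16.6 FPKM with 4-OHT, against 20.7, and Set, which encodes a phosphatase inhibitor, to 415 FPKM, against 491. Both exceed the other control column, which holds 14.3 FPKM for Usp36 and 334 FPKM for Set. The list medians were −0.35 with CBD and 0.00 with 4-OHT.

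MXD proteins and MNT act through SIN3 and histone deacetylases. Of 18 genes listed for SIN3 and histone deacetylase corepressors, with Ncor1 among them, 2 rose with CBD, 3 fell and 13 did not pass. That share of 27.8% is close to the 26.2% of all tested genes. Ncor1 fell to 9.01 FPKM with CBD, against 34.7 in its control, Sap130 to 5.22 FPKM, against 14.0, and the scaffold gene Sin3a to 16.1 FPKM, against 37.6. The longest Ncor1 transcript is of 9037 bp, and its log2 fold of −1.93 is −1.19 with the length trend of the longest bin removed. The Sin3a paralog Sin3b, named after its values were seen, rose to 237 FPKM with CBD, against 112. With 4-OHT 8 of 18 rose and 1 fell, beside 27.2% and 16.9% of all tested genes. Of the 8, 6 also exceed the other control. By comparison, 1564 of the 3055 tested genes that rose exceed it, which is 13.9% of all tested genes. Brms1l was at 8.34 FPKM with 4-OHT, against 6.55 in its control, Arid4a at 7.87 FPKM, against 6.35, and Sap30 at 32.5 FPKM, against 27.0. The list medians were −0.15 with CBD and 0.14 with 4-OHT.

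Of 13 genes of the Polycomb complex that holds MGA, 1 rose with CBD and 12 did not pass, beside 18.4% of all tested genes that rose. It was Yaf2, at 33.8 FPKM with CBD against 23.7 in its control. With 4-OHT 1 rose and 4 fell, a share of 38.5%, beside 44.1% of all tested genes. Ring1 fell to 6.06 FPKM with 4-OHT, against 7.36 in its control, Rybp to 22.1 FPKM, against 26.2, and E2f6 to 12.4 FPKM, against 14.4. Of these, Ring1 also lies below the other control column, while Rybp and E2f6 lie above it, where it holds 17.3 FPKM for Rybp and 10.8 FPKM for E2f6.

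MLX is a MAX-like protein that pairs with the glucose sensors MLXIP and MLXIPL and with some MXD proteins. Mlx itself, named after its values were seen, passed neither test, at 44.8 FPKM with CBD against 35.6 in its control, and at 48.8 FPKM with 4-OHT against 47.7. Txnip, the best known target of this arm, fell to 266 FPKM with CBD, against 455 in its control, and rose to 122 FPKM with 4-OHT, against 88.1. Neither call lies on the same side of the other control column, since the Txnip controls at 455 and 88.1 FPKM bracket both treated values.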

How the data were processed

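RNA-seq was made from 6 samples of mouse AE9a leukemia cells. The submitters' processing notes name Bowtie 0.12.2, mm9 and Cuffdiff, with the Cuffdiff version and gene models not given in the sources used here. The authors deposited 2 tables with 1 FPKM value per group (4 FPKM columns). Their p-values and q-values, as the authors deposited them, are Cuffdiff's, and genes with status OK (13751 with CBD, 11232 with 4-OHT) are the tested ones. Depth, library values and replicate spread are unknown, so no test was added.

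Log2 folds used a pseudocount of 0.1 FPKM, which understates changes of low genes. Median log2 folds in 20 bins of longest GENCODE vM21 transcript formed the length trend. Its error was checked on simulated data for middle lengths only, so genes as long as Mga lie outside that check. Beyond the median length of the longest bin the trend was held constant. The longest annotated transcript of a gene need not be the form expressed. Positions add 1 to the deposited starts, since in 6275 of 19307 genes their distance to the end is the RefSeq length. The members, 7 pathway lists and 7 marker lists were chosen with earlier results of these data known. Named genes are all members, up to 3 called genes with the largest fold per list and comparison at a mean of at least 1 FPKM, and the 3 genes most like Myc. Analyses used Python 3.11.15, pandas 2.3.3, numpy 2.4.6 and scipy 1.17.1. Other settings tried were a 0.01 q threshold, a 1 FPKM minimum, pseudocounts of 1 and 0.01 FPKM, the other control column, centring, the length trend and other sums for the balance.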

Additional observations from a re-analysis of the deposited data

How the results depend on the processing

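No paired analysis was possible because each table holds 1 FPKM value per group, with no replicate number, and for the same reason no replicate could be left out. The change in the log2 balance with CBD, −0.77, was −1.06 without Mnt, −0.15 with Myc set against the mean log2 of the antagonists, and −1.84 against the other control column. It was 0.95 with mean log2 values on each side, where Mycn and Mycl1 weigh as much as Myc, and 0.39 without Mxd4. With 4-OHT the balance of −0.34 became 0.73 against the other control column and kept its sign under the other 7 settings. Members called with CBD went to 2 at a q of 0.01. Calls with CBD at that threshold were 8 for MYC-activated genes and, under Cuffdiff's q, 0 for the MGA complex, and with 4-OHT 3 for the MGA complex. Calls also on the same side of the other control with 4-OHT were 2 for members, 6 for MYC-activated genes, 2 for MYC-repressed genes, 4 for coactivators, 3 for stability genes, 2 for the MGA complex and 0 for the MLX arm, which also had 0 with CBD. With 4-OHT, Myc, Mxd4 and Mxi1 had log2 folds of 0.56, −0.79 and −0.086 when set against the CBD table's control. With the length trend removed that of Mga with CBD was 0.062. The cause of these shifts was not tested. Changing the pseudocount or centring moved no called member across 0. The unknown depth limits what can be said of genes near 0, such as Mycn and Mycl1.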
